A study of Mus musculus with 4 samples.

Results

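The genes described here encode the translation initiation factors (eIFs) and elongation factors (eEFs), the proteins that start a ribosome on an mRNA and move it along. They were chosen by symbol alone, as the rows of the soleus expression table whose gene name begins with Eif and a digit, Eef1 or Eef2. This gave 67 of the 23420 genes in the table. Of these, 65 reached a mean of at least 10 normalized counts over the 4 libraries and were tested with 13287 genes in all. The other members were Eif4e1b, listed at 1.84 in control 3-12 and at 0 in the other libraries, and Eif3j1, listed at 0 in all 4. The symbols Eif2c1, Eif2c2, Eif2c3 and Eif2c4 also match the rule, but they are older names of Ago1, Ago2, Ago3 and Ago4, the Argonaute proteins that carry small RNAs.

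RNA was sequenced from the soleus, a postural muscle of the calf rich in slow fibers, of 2 control mice (3-8 and 3-12) and 2 mice lacking HuR in muscle (muHuR-KO, 1-9 and 3-9), 1 library from each mouse. HuR, encoded by Elavl1, is an RNA-binding protein that recognizes AU-rich and U-rich stretches in many mRNAs and changes how long they last. All mice were of the C57BL/6 strain and 10 weeks of age. The labels give the control genotype as MyoDCre-;LoxP-/- and the knockout genotype as MyoDCre+;LoxP-/-, and the study's methods describe the shared allele as Elavl1 with a floxed exon 2. The MyoD promoter drives Cre in the muscle lineage, so that fibroblasts, vessels, nerve and other cells of the muscle still carry an intact gene in the knockout mice. The values are the authors' DESeq2-normalized counts, which are read counts per gene divided by a size factor for each library. Because whole muscles were sequenced, fewer cells of a type and less RNA per cell cannot be told apart.

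Initiation begins when eIF4E binds the mRNA cap and, with the scaffold eIF4G and the helicase eIF4A, forms eIF4F. eIF2 brings the initiator tRNA to the small ribosomal subunit, the large complex eIF3 holds the parts together, and eIF1, eIF1A, eIF5 and eIF5B select the start codon and join the large subunit. eIF2B recharges eIF2 with GTP, and phosphorylation of the alpha subunit of eIF2 by any of its kinases blocks that step. In elongation eEF1A delivers aminoacyl-tRNA, eEF1B recharges eEF1A, eEF2 moves the ribosome forward, and eIF5A eases it past difficult sequences. Muscle is known for replacing eEF1A1 after birth with the second form, eEF1A2.

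Reads counted in genes numbered 25767295 and 13301715 in controls 3-8 and 3-12 and 30362871 and 33348893 in muHuR-KO 1-9 and 3-9. Neither pair of replicates was 1 library deposited again, since a chi-square per degree of freedom of their counts was 157 for the control pair and 69.1 for the muHuR-KO pair. Control 3-8 was compared with the other libraries because earlier results of these data had set it apart, and no other library was compared in this way. Against the other 3 libraries, which mix control 3-12 with both muHuR-KO libraries and supplied the error (2 residual degrees of freedom), 1649 genes (12.4%) were lower in it and 47 (0.354%) were higher (limma, Benjamini-Hochberg adjusted p under 0.05). The difference moved with the GC content and with the length of the transcripts. On the log2 scale, as control 3-8 minus the others, its median was -0.70 for all genes under 45% GC and 0.18 for the rest, and -0.17 for transcripts longer than the median of 3444.5 bases and 0.21 for the others. The summed normalized counts of 7 slow-fiber markers were 1659149 in control 3-8 and between 1019881 and 1164516 in the other libraries, and none of the 7 was at 0. The sum of 7 fast-fiber markers was lowest in control 3-8, at 954153 against 991953 to 1256500.5. Those of 4 adipocyte markers were 362 in control 3-8 and between 580 and 1129 in the other libraries, and those of 4 Schwann cell markers ran from 2421 (control 3-12) to 5212 (muHuR-KO 3-9). Those of 5 fibroblast markers were highest in muHuR-KO 1-9, at 52089, against 28905, 32676 and 31664 in control 3-8, control 3-12 and muHuR-KO 3-9. Counts of the whole Elavl1 gene were 1349.5 and 1190.1 in controls 3-8 and 3-12 and 1209.7 and 1205 in muHuR-KO 1-9 and 3-9. They differed by a log2 value of -0.07 (SE 0.25, limma adjusted p = 0.9999), but reads from exons outside the floxed one are counted too, so this count does not check the knockout.

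Because HuR recognizes AU-rich stretches, the 3′ untranslated regions (UTRs) of the members were searched on the transcript strand for the AU-rich pentamer ATTTA and for the longer TTATTTATT, which contains it. The sequences came from the longest coding transcript of each gene in GENCODE M21 (GRCm38), written as DNA. ATTTA was found in 44 of the 67 members (65.7%) and in 70.2% of the 12747 tested genes with an annotated 3′ UTR. TTATTTATT was found in 3 members (4.48%), namely Eif4ebp1, Eif2c2 and Eif2c3, and in 8.06% of those genes. The median 3′ UTR was 977 bases in the members and 1192 in all those genes. The first ATTTA, in capitals, is shown with its flanks for 6 of the 7 genes that come first in the comparison with control 3-8. No ATTTA occurs in the 1315-base 3′ UTR of the seventh, Eif2s2.
Eif2ak2, base 143 of 2575: cagacattgtATTTAttaggctatg
Eif2c3, base 792 of 12742: tttgctctggATTTAccacatgtgc
Eif2s3y, base 197 of 343: ttcttgatacATTTAatctgcaatt
Eif3a, base 451 of 964: cttcttaggtATTTActattaacta
Eif5, base 211 of 2134: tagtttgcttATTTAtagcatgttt
Eif5b, base 1199 of 3866: taacacaattATTTAcatgcaatac
The longer TTATTTATT is shown, in capitals, for Eif4ebp1, the best-known repressor of eIF4E, and for Eif2c3.
Eif4ebp1, base 1042 of 1563: ctccgaaaatTTATTTATTattatatgtt
Eif2c3, base 9835 of 12742: tctttcatatTTATTTATTtaaagttatt
A match of letters describes the sequence and is not evidence of binding. The median log2 difference between muHuR-KO and both controls was -0.03 over the 43 tested members with ATTTA and -0.24 over the 22 without. Against control 3-8 these medians were -0.06 and -0.46, and against control 3-12 they were -0.04 and -0.02, so the sets lay apart against control 3-8 and close together against control 3-12. The median GC content of the longest transcripts in these sets was 47.4% and 51.7%. After each library was corrected for GC content, the medians against both controls were -0.11 and -0.21.

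The factor mRNAs took between 1.13% (muHuR-KO 1-9) and 1.23% (control 3-8) of all reads. Levels of different genes were compared as normalized counts per kb of annotated exon. Eef1a2, the muscle and nerve form of eEF1A, was the most abundant member, with levels per kb of 28769 and 19182 in controls 3-8 and 3-12 and 16805 and 21277 in muHuR-KO 1-9 and 3-9. Eef2, the translocase, followed with 12012 and 9339.5 in controls 3-8 and 3-12 and 7302 and 10371 in muHuR-KO 1-9 and 3-9. The lowest Eef1a2 value lay above the highest Eef2 value. Eef1a1, the general form, reached 8386 and 6687 in controls 3-8 and 3-12 and 6619.6 and 7334 in muHuR-KO 1-9 and 3-9. It lay below Eef2 in all 4 libraries, but the ranges overlapped. Eif1, which keeps the scanning ribosome from choosing a wrong start codon, had levels per kb of 8491 and 6064 in controls 3-8 and 3-12 and 6989 and 6426 in muHuR-KO 1-9 and 3-9. Eef1a1 and Eif1 were in this order in 2 of 4 libraries only. Eef1g, the gamma subunit of eEF1B, had levels of 8046 and 5087 in controls 3-8 and 3-12 and 5184 and 5701 in muHuR-KO 1-9 and 3-9. It lay below Eif1 in all 4 libraries with overlapping ranges, and above Eif5a without overlap. The levels per kb of Eif5a were 4281 and 2889 in controls 3-8 and 3-12 and 2339 and 3376 in muHuR-KO 1-9 and 3-9, and those of Eif4g2, a relative of eIF4G that does not bind eIF4E, were 1553 and 3105 in controls 3-8 and 3-12 and 2285 and 2435 in muHuR-KO 1-9 and 3-9. Eif3h, a subunit of eIF3, followed with 2642 and 2068 in controls 3-8 and 3-12 and 2077 and 1758 in muHuR-KO 1-9 and 3-9. Eif5a, Eif4g2 and Eif3h could not be set in a firm order, since neighbours kept their order in 3 of 4 libraries and their ranges overlapped. Eef1a1 and Eif1a have near-identical copies elsewhere in the genome, and how reads shared with such copies were treated is not given in the sources used here.

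**Figure D1:**
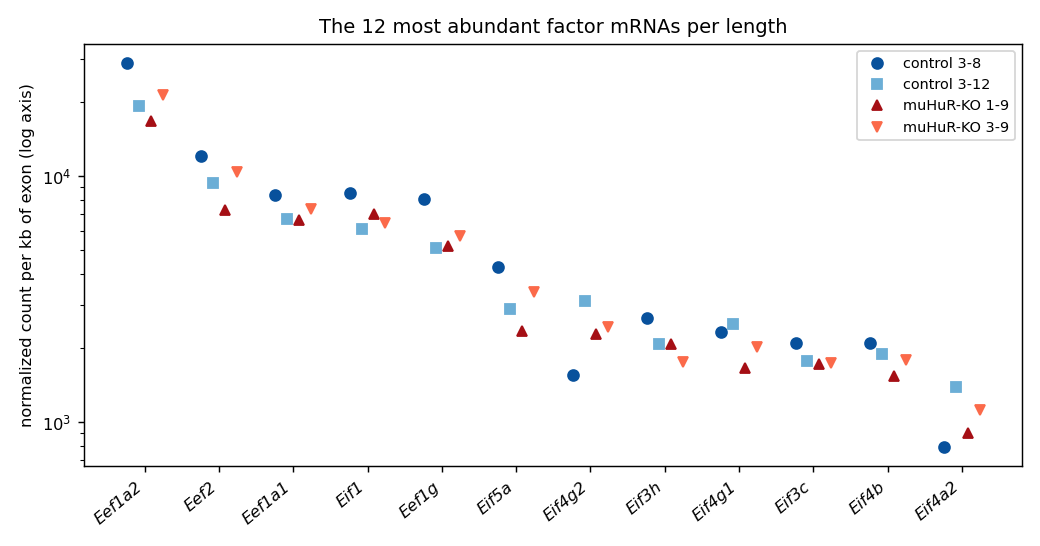
Normalized counts per kb of exon on a log axis for the 12 members of highest mean level, with 1 point for each of the 4 libraries. Eef1a2 lies above Eef2 in every library, and Eif4g2 and Eif4a2 are lowest in control 3-8.

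Against both controls, no member passed the adjusted threshold. The limma fit of the 2 muHuR-KO against the 2 control libraries called 0 of 65 members and 0% of the 13287 genes, no member had an unadjusted p under 0.05, and edgeR and DESeq2 called no member either. Over all genes 102 had an unadjusted p under 0.05 with limma, 131 with edgeR and 74 with DESeq2. Each count is below a fraction of 0.05 of the 13287 genes, the fraction expected if no gene differed. The lack of small p-values among the members therefore does not show that they were unchanged. The median log2 difference was -0.10 over the members and -0.01 over all genes tested, with 24 members above 0 and 41 below. The members ranged from -0.40 for Eif4g1 to 0.78 for Eif2ak2. With 2 libraries against 2, an exact permutation test of a single gene cannot go below p = 0.33.

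Both muHuR-KO libraries lay above both controls for 1 of 65 members (1.54%), against 9.57% of all genes tested, and below both controls for 10 members (15.4%), against 13.0%. The 1 member above was Eif1a, an autosomal gene for eIF1A. Its counts were 254 and 351 in controls 3-8 and 3-12 and 389 and 373 in muHuR-KO 1-9 and 3-9. The controls differed from each other more than control 3-12 differed from either muHuR-KO library. The log2 difference was 0.35 (SE 0.29, limma adjusted p = 0.9999). The X-linked copy, Eif1ax, had counts of 1067 and 1037 in controls 3-8 and 3-12 and 1046 and 1043 in muHuR-KO 1-9 and 3-9, which is close to even.

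The 10 members below both controls were Eif4g1, Eif4b and Eif4e2 of the cap-binding group, the eIF4E-binding proteins Eif4ebp2 and Eif4enif1, Eif1ad, the eIF2B subunits Eif2b4 and Eif2b5, and the eIF3 subunits Eif3c and Eif3l. Eif4g1, the main eIF4G scaffold, had counts of 16951 and 18211 in controls 3-8 and 3-12 and 12069.5 and 14709 in muHuR-KO 1-9 and 3-9. The group means were 17581 ± 891 and 13389 ± 1867 for control and muHuR-KO (SD, n = 2), a log2 difference of -0.40 (SE 0.27, limma adjusted p = 0.9999). Both controls were close together, and muHuR-KO 1-9 was the lowest library. Eif4ebp2, a repressor that holds eIF4E away from eIF4G, had counts of 2142 and 2597 in controls 3-8 and 3-12 and 1820.5 and 1807 in muHuR-KO 1-9 and 3-9. The muHuR-KO libraries were nearly equal, and the gap to control 3-8 was smaller than the gap between the controls. The log2 difference was -0.38 (SE 0.26) against both controls, -0.24 (SE 0.21) against control 3-8 and -0.52 (SE 0.21) against control 3-12. Eif4ebp2 was also the 1 member with an unadjusted limma p under 0.05 against control 3-12, where its adjusted p across all genes was 0.982.

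Of the other members without overlap, Eif4e2, which encodes the cap-binding relative 4EHP that blocks translation, had counts of 1566 and 1643 in controls 3-8 and 3-12 and 1384 and 1237 in muHuR-KO 1-9 and 3-9. Eif4enif1, whose product 4E-T carries eIF4E into the nucleus and to P-bodies, had counts of 1453 and 1578 in controls 3-8 and 3-12 and 1355 and 1180.2 in muHuR-KO 1-9 and 3-9. In both genes muHuR-KO 3-9 was lowest and control 3-12 highest. Eif1ad, named for a domain shared with eIF1A, had counts of 716 and 631 in controls 3-8 and 3-12 and 554 and 503 in muHuR-KO 1-9 and 3-9. Eif2b5, the catalytic subunit of eIF2B, had counts of 2232 and 1564 in controls 3-8 and 3-12 and 1362 and 1536 in muHuR-KO 1-9 and 3-9. Here control 3-8 was far above the rest, and control 3-12 was close to muHuR-KO 3-9. Limma adjusted p was 0.9999 for each of these genes against both controls.

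Against control 3-8 alone, 7 of 65 members were higher in muHuR-KO and none was lower. They were Eif2ak2, Eif2c3, Eif3a, Eif5b, Eif5, Eif2s3y and Eif2s2, with increases of 1.82- to 3.24-fold. Over all genes 9.69% were higher and 0.128% lower in the same test, so the members' 7 of 65 (10.8%) was near the background. Each of the 7 had at least 1 muHuR-KO library below control 3-12, and none passed the threshold against control 3-12 or against both controls. In this limma fit each control formed a separate group. The error therefore rested on the muHuR-KO replicates and on the variance shared across genes, with 1 residual and 8.34 prior degrees of freedom. edgeR and DESeq2 on the recovered reads also called 7 members each. No member was called when low genes were not filtered out or when limma was run without a trend of variance with mean. Unadjusted limma p against control 3-8 was under 0.05 for 21 members and for 2924 of the 13287 genes. Against control 3-12 it was under 0.05 for 1 member and 630 genes.

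Eif2ak2 (chr17:78852564-78882573, GRCm38) encodes PKR, the kinase that phosphorylates eIF2 in response to double-stranded RNA. Its counts were 70.3 and 254 in controls 3-8 and 3-12 and 256 and 207 in muHuR-KO 1-9 and 3-9. Control 3-8 stood below the other 3, which lay close together. The log2 difference was 1.70 against control 3-8 (SE 0.29, limma adjusted p = 0.00917) and -0.14 against control 3-12 (SE 0.29, adjusted p = 0.9998). The other eIF2 kinases did not pass the test. Eif2ak1, the heme-regulated kinase, had counts of 1347 and 1300.5 in controls 3-8 and 3-12 and 1355 and 1019 in muHuR-KO 1-9 and 3-9. Eif2ak3, the endoplasmic reticulum stress kinase PERK, had counts of 149 and 228 in controls 3-8 and 3-12 and 204 and 206 in muHuR-KO 1-9 and 3-9. Eif2ak4, the amino acid sensor GCN2, had counts of 133 and 202 in controls 3-8 and 3-12 and 190.5 and 170.1 in muHuR-KO 1-9 and 3-9. Control 3-8 was lowest for Eif2ak3 and Eif2ak4, as for Eif2ak2, and their log2 differences from it were 0.45 and 0.44. For Eif2ak1 muHuR-KO 3-9 was lowest and the other libraries were close.

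Within eIF2, whose 3 subunits carry the initiator tRNA, the subunits differed. Eif2s2 (chr2:154871410-154892935), the beta subunit, had counts of 2262 and 5239 in controls 3-8 and 3-12 and 4173 and 4083 in muHuR-KO 1-9 and 3-9. It was 1.82-fold higher in muHuR-KO than in control 3-8 (log2 difference 0.87, SE 0.21, limma adjusted p = 0.0286), but -0.13 (adjusted p = 0.810) once each library was corrected for the GC content of the transcripts. Control 3-12 was higher still, and both muHuR-KO libraries lay between the controls. Eif2s1, the alpha subunit that the kinases phosphorylate, had counts of 1279 and 1284 in controls 3-8 and 3-12 and 1253 and 1370.1 in muHuR-KO 1-9 and 3-9 and a log2 difference of 0.03 from either control. Per kb, the ratio of Eif2s2 to Eif2s1 was 1.30, 2.99, 2.44 and 2.18 in controls 3-8 and 3-12 and in muHuR-KO 1-9 and 3-9. Eif2s3y (chrY:1010543-1028847), the copy of the gamma subunit gene on the Y chromosome, had counts of 633 and 1503 in controls 3-8 and 3-12 and 1479 and 1260.3 in muHuR-KO 1-9 and 3-9. Its log2 difference from control 3-8 was 1.11 (SE 0.22, limma adjusted p = 0.0138), and -0.12 (adjusted p = 0.846) after the GC correction. The X-linked copy Eif2s3x had counts of 2331 and 3188 in controls 3-8 and 3-12 and 2749 and 2966 in muHuR-KO 1-9 and 3-9 and a difference of 0.29 (SE 0.21, adjusted p = 0.426). Both copies were lowest in control 3-8 and highest in control 3-12. Eif2a and Eif2d encode other proteins that can deliver initiator tRNA. Their log2 differences from control 3-8 were 0.57 and -0.46, in opposite directions.

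None of the 5 subunits of the exchange factor eIF2B passed the test. All 5 had differences below 0 from control 3-8, as had 52.8% of all genes tested. Their median was -0.44, with a range from -0.63 for Eif2b2 to -0.33 for Eif2b1. None passed the test with limma, edgeR or DESeq2. Unadjusted limma p was under 0.05 for 2 of them, beside 2924 of all 13287 genes. Against control 3-12 the median was -0.03, with 2 subunits above 0 and 3 below.

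In eIF3, 1 of 13 tested subunits (7.69%) was higher and none lower against control 3-8, beside 9.69% and 0.128% of all genes. Eif3a (chr19:60761117-60790658), the scaffold subunit, had counts of 2998 and 10354 in controls 3-8 and 3-12 and 8168 and 7759 in muHuR-KO 1-9 and 3-9. It was 2.65-fold higher than in control 3-8 (log2 difference 1.41, SE 0.21, limma adjusted p = 0.00852), and its difference from control 3-12 was -0.38 (SE 0.21). The muHuR-KO libraries thus lay between the controls. Eif3b, which joins Eif3a at the core, had counts of 3707 and 2654 in controls 3-8 and 3-12 and 2322 and 2763 in muHuR-KO 1-9 and 3-9 and the opposite order of controls. Per kb, the ratio of Eif3a to Eif3b was 0.310 and 1.49 in controls 3-8 and 3-12 and 1.35 and 1.08 in muHuR-KO 1-9 and 3-9. Eif3e and Eif3m differed from control 3-8 by 0.13 and 0.09 on the log2 scale, and were called lower after the GC correction, at -1.12 and -0.90 (limma adjusted p = 0.0124 and 0.0316). The remaining subunits lay between -0.58 for Eif3g and -0.28 for Eif3c, except Eif3j2, a low gene. The counts of Eif3j2 were 24.4 and 53.3 in controls 3-8 and 3-12 and 48.2 and 65.2 in muHuR-KO 1-9 and 3-9, and its difference of 1.17 did not pass (SE 0.40, adjusted p = 0.118). Eif3j2 and the unread Eif3j1 are near-identical copies, so the split of reads between them is uncertain. Without strand in the counting, 43.3% of the exon length of Eif3d also lies under an antisense gene. That gene is not among the genes listed with counts, and the strand setting is not given in the sources used here. Whether Eif3d lost reads to it was not tested.

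Among the factors that select the start codon and join the subunits, Eif5 and Eif5b passed the test against control 3-8. Eif5 (chr12:111538016-111546752) encodes the protein that triggers GTP hydrolysis by eIF2, and its counts were 1833 and 5504 in controls 3-8 and 3-12 and 3903 and 4746 in muHuR-KO 1-9 and 3-9. The log2 difference was 1.23 (SE 0.22, limma adjusted p = 0.00970), which lost the call after the GC correction. Eif5b (chr1:37998010-38055579) encodes the GTPase that joins the large subunit, and its counts were 2548 and 7400.1 in controls 3-8 and 3-12 and 7097 and 5646 in muHuR-KO 1-9 and 3-9. The log2 difference was 1.31 (SE 0.23, limma adjusted p = 0.00917), which lost the call after a correction for transcript length. For both genes control 3-12 was the highest library and control 3-8 the lowest. Of the exon length of Eif5b, 16.8% is shared with Rev1 on the opposite strand, and Rev1 is among the genes listed with counts. Eif6, which keeps the large subunit from joining early, had counts of 628 and 399 in controls 3-8 and 3-12 and 411 and 469 in muHuR-KO 1-9 and 3-9, the reverse order of controls. The per-kb ratio of Eif5b to Eif6 was 1.12 in control 3-8 and between 3.33 and 5.14 in the other libraries. Eif1b, a close relative of Eif1, had counts of 1049.7 and 682 in controls 3-8 and 3-12 and 841 and 701 in muHuR-KO 1-9 and 3-9, and Eif1 itself 17813 and 12722 in controls 3-8 and 3-12 and 14663 and 13482 in muHuR-KO 1-9 and 3-9. Eif1, Eif1b and Eif1ad had negative differences from control 3-8 that did not pass the test.

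Eif2c3 (chr4:126331704-126429556), the Argonaute Ago3, had counts of 77.1 and 246 in controls 3-8 and 3-12 and 292 and 178 in muHuR-KO 1-9 and 3-9. The muHuR-KO libraries lay on either side of control 3-12. The log2 difference was 1.55 from control 3-8 (SE 0.34, limma adjusted p = 0.0207) and -0.11 from control 3-12 (SE 0.34). Neither the GC nor the length correction kept this call. Eif2c2, which encodes the slicing Argonaute Ago2, was more abundant, with counts of 2335 and 2724 in controls 3-8 and 3-12 and 1963 and 2466 in muHuR-KO 1-9 and 3-9. Its log2 difference from control 3-8 was -0.09. Without the 4 Argonautes, 6 of 61 tested members (9.84%) were higher than in control 3-8, near the 9.69% of all genes. The median over these 61 members was -0.28, beside -0.04 over all genes.

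**Figure D2:**
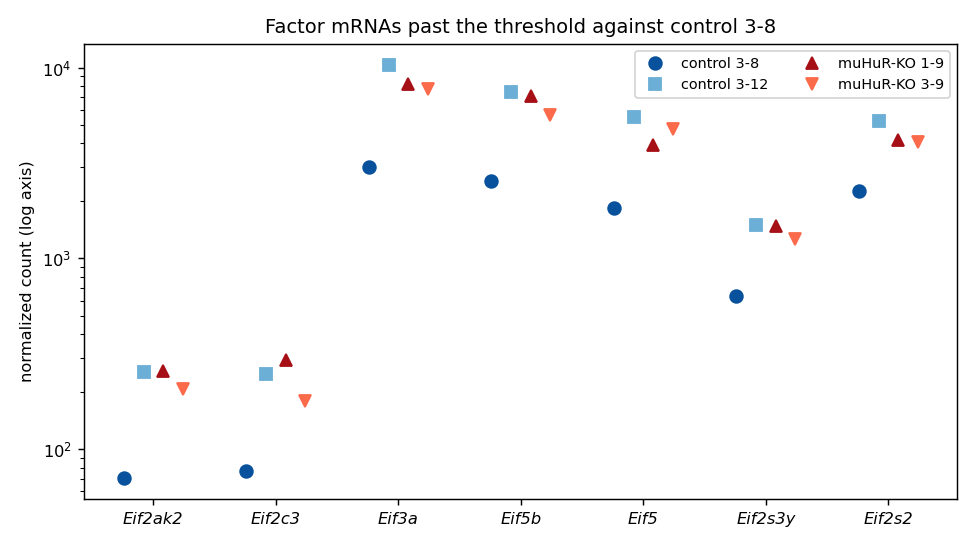
Normalized counts on a log axis for the 7 members past the adjusted threshold against control 3-8, with 1 point for each library. In all 7 control 3-8 is the lowest library, and control 3-12 is the highest except for Eif2ak2 and Eif2c3, where muHuR-KO 1-9 is highest.

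**Figure D3:**
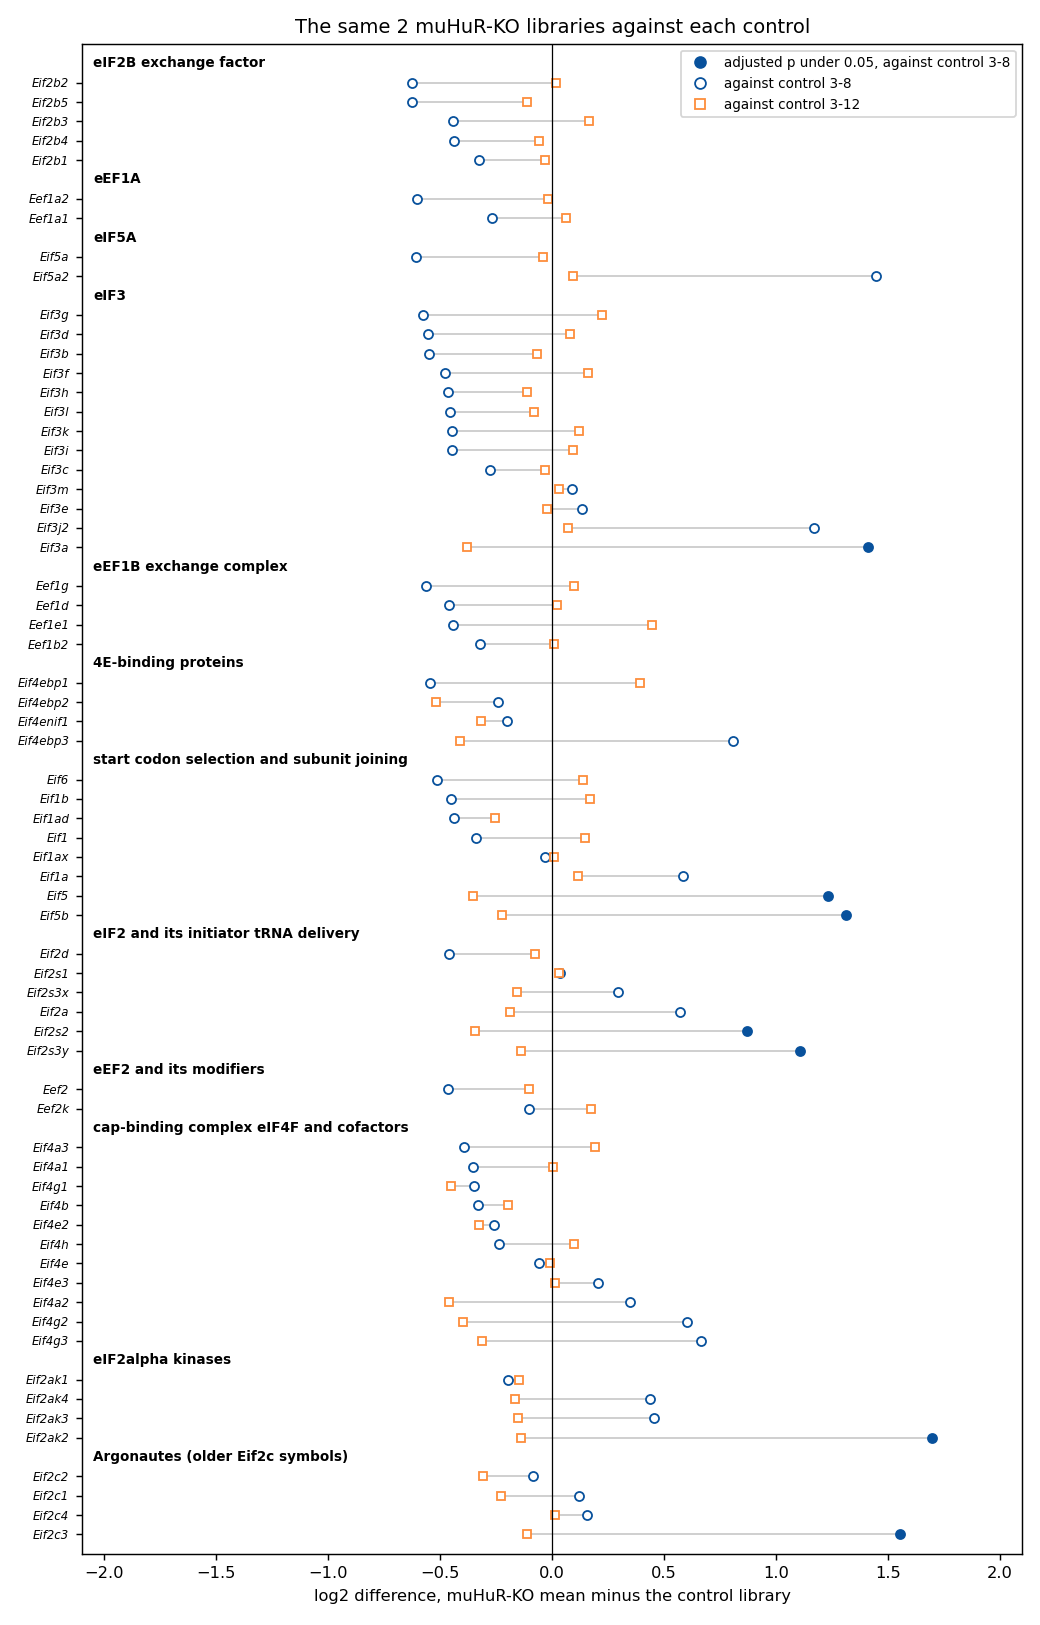
Log2 difference of the muHuR-KO mean from control 3-8 (circles, filled where the limma adjusted p is under 0.05) and from control 3-12 (squares) for the 65 tested members, grouped by role, with a grey line joining both values of a gene. The filled circles lie at 0.87 or more, while the squares of the same genes lie below 0.

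Without the GC correction, the cap-binding group had no call by limma, edgeR or DESeq2 in the comparisons with muHuR-KO. Of its 11 tested members, 2 had an unadjusted limma p under 0.05, both against control 3-8, beside 2924 of all 13287 genes. Eif4e, the cap-binding protein, had counts of 3180.5 and 3081 in controls 3-8 and 3-12 and 3489.7 and 2678 in muHuR-KO 1-9 and 3-9, and its log2 difference was -0.06 from control 3-8 and -0.01 from control 3-12. The libraries spread without regard to group, but after the GC correction Eif4e was called lower than in control 3-8, at -0.87. Eif4g2 and Eif4g3 were lowest in control 3-8, with differences from it of 0.60 (SE 0.24, limma adjusted p = 0.182) and 0.66 (SE 0.22, adjusted p = 0.105). Eif4g1 differed from the same library by -0.35. The counts of Eif4g2 were 15786 and 31567 in controls 3-8 and 3-12 and 23234 and 24752 in muHuR-KO 1-9 and 3-9, and those of Eif4g3, a second full-length scaffold, were 2520.3 and 4957 in controls 3-8 and 3-12 and 4391 and 3633 in muHuR-KO 1-9 and 3-9. In both, muHuR-KO lay between the controls. The helicase Eif4a1, with counts of 4230.2 and 3307 in controls 3-8 and 3-12 and 3382 and 3246 in muHuR-KO 1-9 and 3-9, was highest in control 3-8. Its close relative Eif4a2, with counts of 4208 and 7362 in controls 3-8 and 3-12 and 4818 and 5943 in muHuR-KO 1-9 and 3-9, was lowest there. Eif4a3, a helicase of the exon junction complex, had counts of 1030.2 and 688 in controls 3-8 and 3-12 and 783 and 785 in muHuR-KO 1-9 and 3-9. Like Eif4a1 it was highest in control 3-8. Eif4e3, a relative of eIF4E, had counts of 476 and 544 in controls 3-8 and 3-12 and 558 and 539 in muHuR-KO 1-9 and 3-9. The accessory proteins Eif4b and Eif4h differed from control 3-8 by -0.33 and -0.24.

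The products of Eif4ebp1, Eif4ebp2 and Eif4ebp3 are released from eIF4E when mTORC1 phosphorylates them. With Eif4enif1 they form the eIF4E-binding group, which had no call by any of the 3 tools either. Of these 4 genes, 1 had an unadjusted limma p under 0.05 against control 3-8 and 1 against control 3-12. Over all 13287 genes these counts were 2924 and 630. Eif4ebp1 had counts of 1118 and 583 in controls 3-8 and 3-12 and 651 and 899 in muHuR-KO 1-9 and 3-9. It was highest in control 3-8 and lowest in control 3-12, with the muHuR-KO libraries between, and the log2 difference was -0.55 and 0.39 from these controls. Eif4ebp3 was low, with counts of 38.1 and 90.1 in controls 3-8 and 3-12 and 69.7 and 65.2 in muHuR-KO 1-9 and 3-9. Of its exon length, 67.3% is shared on the same strand with a longer gene model that reads through it. That model is not among the genes listed with counts.

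Of the 8 tested eEF members, 0 passed with limma, edgeR or DESeq2 in the comparisons with muHuR-KO. Of these members, 1 (Eef1g) had an unadjusted limma p under 0.05, against control 3-8, beside 2924 of all 13287 genes. Eef1a2 had counts of 59954 and 39975 in controls 3-8 and 3-12 and 35022 and 44341 in muHuR-KO 1-9 and 3-9, a log2 difference of -0.61 from control 3-8 (SE 0.28, limma adjusted p = 0.245) and -0.02 from control 3-12 (SE 0.28). Eef1a1 had counts of 20906 and 16671 in controls 3-8 and 3-12 and 16503 and 18284 in muHuR-KO 1-9 and 3-9 and differences of -0.27 and 0.06. Both genes were highest in control 3-8, and the muHuR-KO libraries lay close to control 3-12. The 4 subunits counted with eEF1B, namely Eef1b2, Eef1d, Eef1g and Eef1e1, had a median difference of -0.45 from control 3-8 and 0.06 from control 3-12. Eef1e1 encodes a protein of the aminoacyl-tRNA synthetase complex, also called AIMP3. Eef2 had counts of 39929 and 31044 in controls 3-8 and 3-12 and 24272 and 34473 in muHuR-KO 1-9 and 3-9. Of the muHuR-KO libraries, 3-9 lay between the controls and 1-9 below both. Eef2k, the kinase that turns eEF2 off, had counts of 1046 and 863 in controls 3-8 and 3-12 and 890.2 and 1065 in muHuR-KO 1-9 and 3-9 and differences of -0.10 and 0.17. Eif5a, which carries the modified lysine hypusine, differed from control 3-8 by -0.61 (SE 0.26, limma adjusted p = 0.213). Its rarer relative Eif5a2 had counts of 19.5 and 51.5 in controls 3-8 and 3-12 and 60.8 and 49.6 in muHuR-KO 1-9 and 3-9 and a difference of 1.45 (SE 0.40, adjusted p = 0.0520), which passed the threshold with TMM factors only (adjusted p = 0.0352). The unadjusted limma p against control 3-8 was 0.0442 for Eif5a and 0.00524 for Eif5a2.

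Among 10 members listed as 5′ terminal oligopyrimidine (TOP) mRNAs, whose translation follows mTORC1, 9 of 10 were below 0 against control 3-8, with a median of -0.46 and no call by limma, edgeR or DESeq2 (1 at an unadjusted limma p under 0.05). Against control 3-12 the count was 5 of 10 and the median -0.01. The cytosolic ribosomal proteins, the larger TOP family, had a median of -0.41 against control 3-8 over 83 tested genes and 0.09 against control 3-12, also with no call by any of the 3 tools (11 and 0 at an unadjusted limma p under 0.05). Over all genes the medians were -0.04 and -0.03, and 52.8% and 53.9% were below 0. Unadjusted limma p was under 0.05 for 2924 and 630 of all 13287 genes.

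Shares within sets of related factors were computed per kb in each library. Eef1a2 made up 77.4%, 74.2%, 71.7% and 74.4% of the eEF1A mRNA in controls 3-8 and 3-12 and in muHuR-KO 1-9 and 3-9, so the muHuR-KO values overlapped the controls. Eif4e2 made up 22.8% ± 0.406 of the Eif4e, Eif4e2 and Eif4e3 sum in control and 19.3% ± 0.923 in muHuR-KO (SD, n = 2). This was the 1 set with a share whose groups did not overlap, and the counts of Eif4e2 had not overlapped either. With 2 libraries against 2, an exact permutation test of a single share cannot go below p = 0.33. Eif4g1 made up 56.6% of the 3 eIF4G mRNAs in control 3-8 and between 38.1% and 42.2% in the other libraries. Eif4a2 was 35.0% of the 3 eIF4A mRNAs in control 3-8, 55.9% in control 3-12 and 44.0% and 49.9% in muHuR-KO 1-9 and 3-9. Eif2s3y was 19.9% of its pair in control 3-8 and between 28.0% and 33.0% in the other libraries. Eif1 and Eif1b kept nearly the same shares, with Eif1 between 90.1% and 91.2%.

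**Figure D4:**
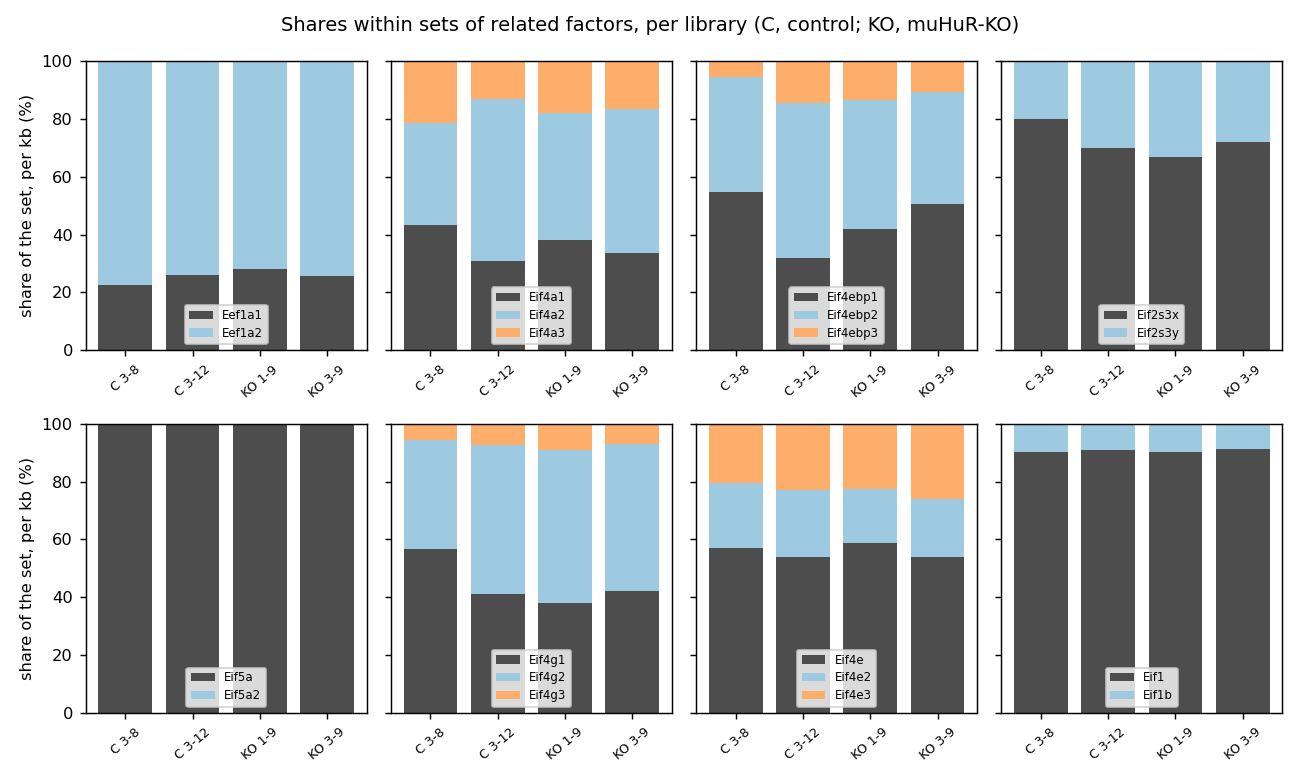
Share of each member in 8 sets of related factors, as percent of the set's summed normalized counts per kb, with 1 stacked bar for each library (C, control; KO, muHuR-KO). In the eIF4G set Eif4g1 takes 56.6% in control 3-8 and 38.1% to 42.2% in the others, while the Eif1 set is even.

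Control 3-8 was the highest library for 33 of 65 members (50.8%) and the lowest for 22 (33.8%), against 37.5% and 34.9% of all genes. Both muHuR-KO libraries lay between the controls for 29 members (44.6%), against 33.1% of all genes. Against the other 3 libraries together, 9 members were lower in control 3-8 and none higher, beside 12.4% and 0.354% of all genes. After the GC correction 4 were lower and 6 higher, beside 2.89% and 2.09% of all genes, and after a correction for transcript length 7 and 1, beside 8.38% and 1.88%.

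The members' differences from control 3-8 moved with GC content. The longest transcripts of the 65 members ran from 36.2% GC (Eif3e) to 60.6% (Eef1a2), and Spearman's rank correlation between GC and the log2 difference was -0.68 over the members and -0.58 over 13198 genes, as a description across genes that share the same 4 libraries. Against control 3-12 the same correlation was 0.10 over the members and 0.22 over all genes, and against both controls it was -0.68 and -0.44. The 20 members under 45% GC had a median difference of 0.59 from control 3-8, and 7 of them (35.0%) were higher, beside 31.0% of all genes under 45%. The 45 members at or above 45% GC had a median of -0.39, and none was called. By length, 6 of the 27 members with transcripts over 3444.5 bases were higher than in control 3-8 (22.2%), beside 16.7% of all such genes, and 1 of the 38 shorter ones (2.63%), beside 2.70%. A loess correction against transcript length left Eif2ak2, Eif3a, Eif5 and Eif2s3y higher and no member lower, beside 4.75% and 0.394% of all genes.

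Each library was then corrected by a loess curve against GC content, after which 3 of 65 members were higher than in control 3-8 and 4 lower, beside 2.14% and 1.42% of all genes. Eif2ak2, Eif3a and Eif5b stayed higher, with log2 differences of 1.25, 1.03 and 0.85 (limma adjusted p = 0.0279, 0.0184 and 0.0460). Eif2s2 and Eif2s3y turned to -0.13 and -0.12, and Eif2c3 and Eif5 kept their direction without passing, at 0.88 (adjusted p = 0.147) and 0.54 (adjusted p = 0.222). The 4 lower members were Eif3e at -1.12, Eif1ax at -0.93, Eif3m at -0.90 and Eif4e at -0.87 (adjusted p = 0.0124, 0.0308, 0.0316 and 0.0440). Before the correction these 4 genes, at 36.2% to 40.5% GC, had differences between -0.06 and 0.13. Against both controls and against control 3-12 the corrected values gave no call of a member. Groups without overlap went from 11 members (16.9%, beside 22.6% of all genes) to 17 (26.2%, beside 24.4%), of which 1 was above and 16 were below both controls, beside 11.1% and 13.2% of all genes. The part of base composition and of length in the calls against control 3-8 was not tested beyond these corrections.

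**Figure D5:**
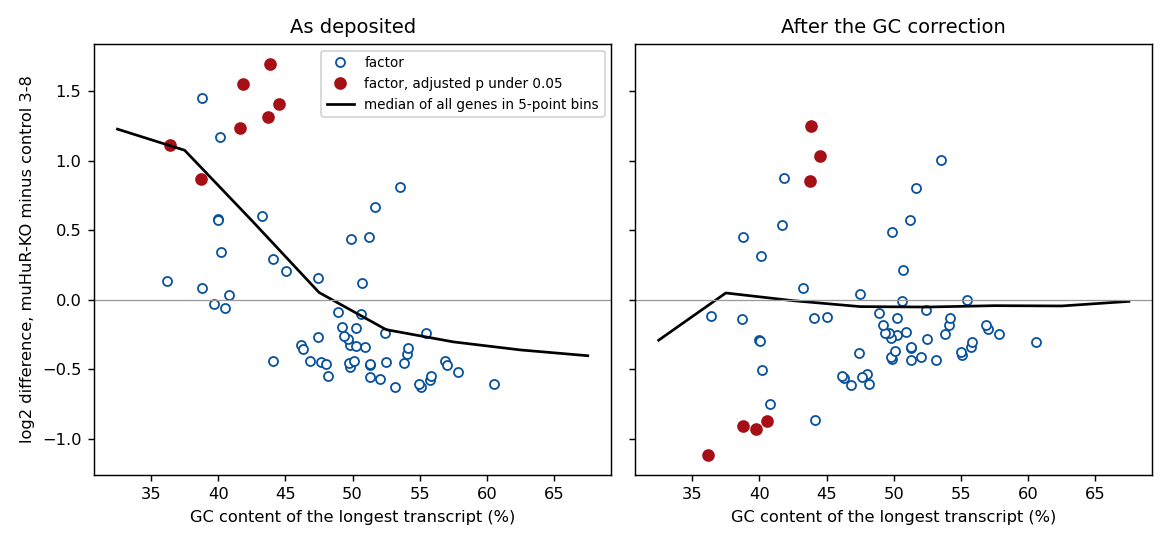
Log2 difference of the muHuR-KO mean from control 3-8 against the GC content of the longest transcript for the 65 members (circles, filled where the limma adjusted p is under 0.05), before and after a loess correction of each library, with the median of all genes in bins of 5 percentage points as a line. Before the correction both the members and the line fall with GC content, and after it the line lies between -0.05 and 0.05 from 35% GC upward and at -0.29 in the lowest bin of 33 genes, and 3 members are called higher and 4 lower.

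Genes that work with the factors were followed in 6 lists of 63 genes, of which 61 were tested. Against both controls and against control 3-12 none was called by limma. Unadjusted limma p was under 0.05 for 0 and 5 of these genes, beside 102 and 630 of all 13287 genes. edgeR called none in either. DESeq2 called none against both controls and 1 against control 3-12, Pabpc1, which encodes the main cytoplasmic poly(A)-binding protein. Its counts were 3982 and 18137 in controls 3-8 and 3-12 and 5547 and 7834 in muHuR-KO 1-9 and 3-9, so that control 3-12 alone was high. Against control 3-8, 7 were higher (11.5%) and none lower with limma, near the 9.69% of all genes, and edgeR and DESeq2 called 8 and 5. Rps6kb1, the S6 kinase 1 downstream of mTORC1, had counts of 440.4 and 1549 in controls 3-8 and 3-12 and 1019 and 1010.0 in muHuR-KO 1-9 and 3-9. Its log2 difference was 1.20 from control 3-8 (SE 0.22, limma adjusted p = 0.00957) and -0.61 from control 3-12. Abce1, which splits ribosomes after termination, had counts of 988 and 2748 in controls 3-8 and 3-12 and 2334 and 2187 in muHuR-KO 1-9 and 3-9. Ddx3x, a helicase of scanning, had counts of 2877 and 8158 in controls 3-8 and 3-12 and 6261 and 7152 in muHuR-KO 1-9 and 3-9. For these genes the muHuR-KO libraries lay between the controls. Larp4, Gigyf2 and Pdcd4 had differences of 1.51, 0.88 and 1.02 from control 3-8, and Pdcd4 is known to hold eIF4A inactive. The last, Dnajc3, whose product restrains eIF2 kinases, had counts of 808 and 1286 in controls 3-8 and 3-12 and 1429 and 1360.2 in muHuR-KO 1-9 and 3-9. It was the 1 gene of the 7 with both muHuR-KO libraries above both controls, a pattern seen in 9.57% of all genes tested. Its log2 difference from both controls was 0.45 (SE 0.30, limma adjusted p = 0.9999), and DESeq2 did not call it against control 3-8. Dhps and Dohh, the enzymes that make hypusine on eIF5A, differed from control 3-8 by -0.61 and -0.51 without passing the test.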

How the data were processed

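Soleus RNA of 2 control and 2 muHuR-KO mice was sequenced as paired-end 100-nucleotide reads. The submitters' processing notes name TopHat2 2.0.10, HTSeq 0.6.1 and DESeq2, with GRCm38 (mm10). The version of DESeq2, the annotation and the strand setting are not given in the sources used here. The deposited signal columns are the authors' normalized counts, that is, reads per gene divided by a size factor for each library. Columns of the authors' own comparison (fold changes, errors and p-values) and their mean were not used, and 0 columns of per-sample values belonged to no sample.

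All values (100%) were whole reads to within 0.01 after division by the value of 1 read. Total reads ranged from 13301715 to 33348893. Normalized counts were log2-transformed after adding 1, so fold changes of low genes are understated. Genes needed a mean of 10 or more. The test was limma 3.58.1 under R 4.3.3, with eBayes and a variance trend and Benjamini-Hochberg adjustment over 13287 genes at 0.05. Comparisons were muHuR-KO against both controls (2 groups) and against each control (3 groups). Alternatives were pseudocounts 0.5 and 5, no filter, a minimum mean of 50, TMM scaling, no trend, 2 count tests of the recovered reads (DESeq2 1.42.0, edgeR 4.0.16), loess corrections (span 0.4) against GC content and transcript length, and leaving out each library. Exon lengths, GC content and 3′ UTRs came from GENCODE M21 by symbol or a single RefSeq synonym. The limma fit was run on simulated counts with known changes, and the median fold changes it recovered were checked. The simulation had no GC or length shift and no outlying control, so it does not check the calls against control 3-8. Members, lists and tests were chosen with earlier results of these data known. Values by library are given for members past the threshold in a comparison with muHuR-KO, the 8 highest per kb, related sets (as counts, levels or shares), the 6 of smallest p among those without overlap, and the 4E-binding proteins, eIF2 kinases and Eef2k. Other genes were named as role or pathway examples after their values were seen. Limma p-values rest on the spread between mice and on the variance shared across genes. Against both controls there were 2 mice per group, with 2 residual and 5.62 prior degrees of freedom. Against a single control, that control is 1 library and the spread comes from the 2 muHuR-KO mice (1 residual and 8.34 prior degrees of freedom).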

Additional observations from a re-analysis of the deposited data

How the results depend on the processing

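No paired analysis was run, because the groups share no replicate number. The study's methods describe the controls as littermates without Cre, but the labels do not say which mice shared a litter. Labels 3-8, 3-12 and 3-9 begin with the same digit, and a shared litter or cage was not tested. Against both controls the count of members called was 0 under every alternative that kept all libraries. The median member difference against both controls was -0.10. It was -0.14 with a mean of at least 50, -0.0565 with TMM factors and -0.15 with the GC correction. Without single libraries it lay between -0.26 and -0.0343. Those fits leave 1 library in a group, so no count of calls is given for them. Against control 3-8 the 7 calls became 0 without a filter, 0 without a trend, 4 with the length correction, and 3 higher and 4 lower with the GC correction (2.14% and 1.42% of all genes). The median of -0.26 became -0.21 with TMM factors and -0.21 with edgeR. Eif2s2 and Eif2s3y reversed under the GC correction, at -0.13 and -0.12. Against control 3-12 the count stayed 0, and the median of -0.03 became 0.0099 with TMM factors and 0.0157 with edgeR. For control 3-8 against the other libraries, 9 lower and 0 higher became 0 calls without a filter, 4 lower and 6 higher with the GC correction (2.89% and 2.09% of all genes), 1 higher with the length correction and 2 higher with DESeq2. Members without overlap went from 11 (16.9%, beside 22.6% of all genes) to 17 (26.2%, beside 24.4%) with the GC correction. The cause of these shifts was not tested. Leaving out a muHuR-KO library leaves no residual degrees of freedom against a single control, so those values carry no test. With 13301715 reads in control 3-12, low members such as Eif5a2 and Eif3j2 rest on few reads.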

Other observations

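The factors that run translation inside mitochondria form a list of 10 tested genes of their own, and none passed the limma threshold against both controls, control 3-8 or control 3-12. Against control 3-8, 3 of the 10 had an unadjusted limma p under 0.05, beside 2924 of all 13287 genes. edgeR called 1 and DESeq2 none. The median log2 difference was -0.14 from control 3-8, -0.07 from control 3-12 and -0.12 from both. Tufm, the mitochondrial counterpart of eEF1A, had counts of 3273 and 2761 in controls 3-8 and 3-12 and 2244 and 2827 in muHuR-KO 1-9 and 3-9, and Gfm1, the counterpart of eEF2, 3039.8 and 3925 in controls 3-8 and 3-12 and 3023 and 2903 in muHuR-KO 1-9 and 3-9. For Tufm the groups overlapped. For Gfm1 both muHuR-KO libraries lay below both controls, as for 13.0% of all genes tested, and close to control 3-8.

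Of 13 tested genes of mTORC1 and of kinases that act on the factors, 11 were below 0 against control 3-8 and 8 against control 3-12. Over all genes tested 52.8% and 53.9% were below 0. The median GC content was 54.7% for the 13 genes and 49.8% for all genes. Rps6kb1 was the 1 call, against control 3-8. Mtor, the kinase itself, had counts of 1779 and 1823 in controls 3-8 and 3-12 and 1349 and 1616 in muHuR-KO 1-9 and 3-9. Both muHuR-KO libraries lay below both controls, as for 13.0% of all genes tested. The log2 difference of Mtor was -0.29 (SE 0.26, limma adjusted p = 0.9999 against both). Ddit4, a repressor of mTORC1 that responds to stress and glucocorticoids, had counts of 244 and 212 in controls 3-8 and 3-12 and 192 and 517 in muHuR-KO 1-9 and 3-9, and muHuR-KO 3-9 alone was high. These genes were picked as examples after their values were seen.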
